A study of Mus musculus with 135 samples.

Results

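The Kruppel-like factor genes described here are *Klf2*, *Klf3*, *Klf4*, *Klf6*, *Klf7*, *Klf10*, *Klf12* and *Klf13*, taken by name, and all 8 were present among the 15181 genes counted. They were followed in single haematopoietic stem cells (HSCs) of young and old mice, to ask how each gene was distributed over individual stem cells at either age. The cells were 7AAD- Lin- Sca-1+ c-Kit+ CD150+ CD48- bone marrow cells of C57BL/6 mice that all carried the *Vwf-eGFP* reporter, a transgene that marks cells with activity of the von Willebrand factor gene. Young mice were 2 to 3 months old and old mice 20 to 25 months old, and the cells of each age came from a single mouse in an experiment of its own. Of 61 young and 74 old cells sequenced, 52 young and 62 old cells passed the quality limits of the study and were used. Age, mouse and experiment therefore cannot be told apart, cells are not replicates of an age, and no test between the ages was possible.

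Kruppel-like factors (KLFs) are zinc finger transcription factors that bind GC boxes and CACCC boxes in promoters and enhancers, as do the related SP factors. Their amino-terminal parts differ and recruit either coactivators or corepressors. Klf2 and Klf4 are known for restraining proliferation of lymphocytes and endothelial cells, Klf4 also as a reprogramming factor, and several KLF genes are induced quickly by stress or growth signals.

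The letters that the KLF proteins themselves bind were looked for in promoter windows of 250 bases (GRCm38.p6, the RefSeq release of mm10), which were at hand for 7 of the 8 members. For *Klf2*, *Klf3*, *Klf4*, *Klf6* and *Klf13* these were the bases directly before the RefSeq start of the gene. The windows of *Klf7* (chr1:64121390-64121639, minus strand) and *Klf12* (chr14:100149797-100150046, minus strand) lay inside the gene spans given below. The promoters of the 4 most abundantly read of the 7 members are printed 5′ to 3′ on the strand of the gene, with CACCC and GGGCGG on either strand in capitals (GGGTG and CCGCCC are their reverse complements). They lie at chr8:72318812-72319061 (*Klf2*, plus strand), chr4:55532476-55532725 (*Klf4*, minus strand), chr13:5861239-5861488 (*Klf6*, plus strand) and chr7:63938916-63939165 (*Klf13*, minus strand).
Klf2: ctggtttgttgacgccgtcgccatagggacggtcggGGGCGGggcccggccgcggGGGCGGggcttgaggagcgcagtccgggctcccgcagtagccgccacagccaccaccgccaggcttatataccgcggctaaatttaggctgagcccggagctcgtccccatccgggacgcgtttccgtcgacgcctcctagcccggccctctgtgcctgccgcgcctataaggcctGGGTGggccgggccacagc
Klf4: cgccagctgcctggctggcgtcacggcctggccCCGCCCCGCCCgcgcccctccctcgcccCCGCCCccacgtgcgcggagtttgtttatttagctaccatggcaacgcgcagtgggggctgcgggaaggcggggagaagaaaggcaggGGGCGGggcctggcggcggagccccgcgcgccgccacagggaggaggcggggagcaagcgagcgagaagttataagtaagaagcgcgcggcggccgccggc
Klf6: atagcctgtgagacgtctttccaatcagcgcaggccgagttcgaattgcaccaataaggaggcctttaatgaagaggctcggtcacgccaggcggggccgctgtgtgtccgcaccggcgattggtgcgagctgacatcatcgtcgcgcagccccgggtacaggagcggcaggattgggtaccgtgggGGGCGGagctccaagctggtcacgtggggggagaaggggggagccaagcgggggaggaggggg
Klf13: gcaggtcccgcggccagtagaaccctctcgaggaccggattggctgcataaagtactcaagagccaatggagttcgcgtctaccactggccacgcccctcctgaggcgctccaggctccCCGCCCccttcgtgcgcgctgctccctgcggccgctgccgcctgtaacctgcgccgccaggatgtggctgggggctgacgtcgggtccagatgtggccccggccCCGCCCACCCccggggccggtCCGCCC

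GGGCGG occurred in 6 of the 7 windows, against 32.7% of all 32851 RefSeq promoter windows of this length. *Klf3* held 6 matches, *Klf4* 4, *Klf13* 3, *Klf2* 2, and *Klf6* and *Klf7* 1 each. CACCC was found in *Klf2*, *Klf3*, *Klf7*, *Klf12* and *Klf13*, and in 52.01% of all windows. The CACCC match of *Klf13* shares bases with a GGGCGG match. CCAAT was present 4 times before *Klf6* and 2 times before *Klf13* but in the window of no other member, and in 33.8% of all windows. The binding element of MEF2 factors, searched by its consensus, had a match before *Klf2* and in 2.92% of all windows. The CArG box of SRF had none in the windows of the members and at least 1 in 1.47% of all windows. GC content was 78.4% before *Klf3*, 74% before *Klf4*, 71.6% before *Klf13*, 71.2% before *Klf2* and 64.8% before *Klf6*, with a median of 52.4% over all windows. It was 59.2% in the window inside *Klf7* and 48% in that inside *Klf12*. These are matches of letters, and nothing in the expression data shows that a factor bound there.

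The level of a gene in a cell is given as log2(CPM + 1), where CPM is counted reads scaled to 1000000 counted reads of the cell, and a cell was said to express a gene when this level was above 2. Kept cells had 273236 to 5688706 counted reads (young) and 276316 to 4086659 (old), and a median of 4115.5 and 3901.5 genes expressed. Of the HSC markers, *Kit* was expressed in 49 young and 61 old cells, *Hlf* in 49 and 55, *Mecom* in 43 and 40, *Ly6a* in 28 and 43, *Procr* in 11 and 24 and *Slamf1*, which encodes CD150, in 9 and 15. Of genes whose products the sort selects against, *Cd48* was expressed in 1 young and 0 old cells, *Itgam* in 8 and 1, *Cd4* in 5 and 0 and *Cd8a* in 3 and 3, and together they were above the limit in 14 young and 5 old cells. The part of these cells in the differences of the members was not tested. *Xist* was expressed in 50 young and 8 old cells, so sex also cannot be told apart from age.

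**Figure D1:**
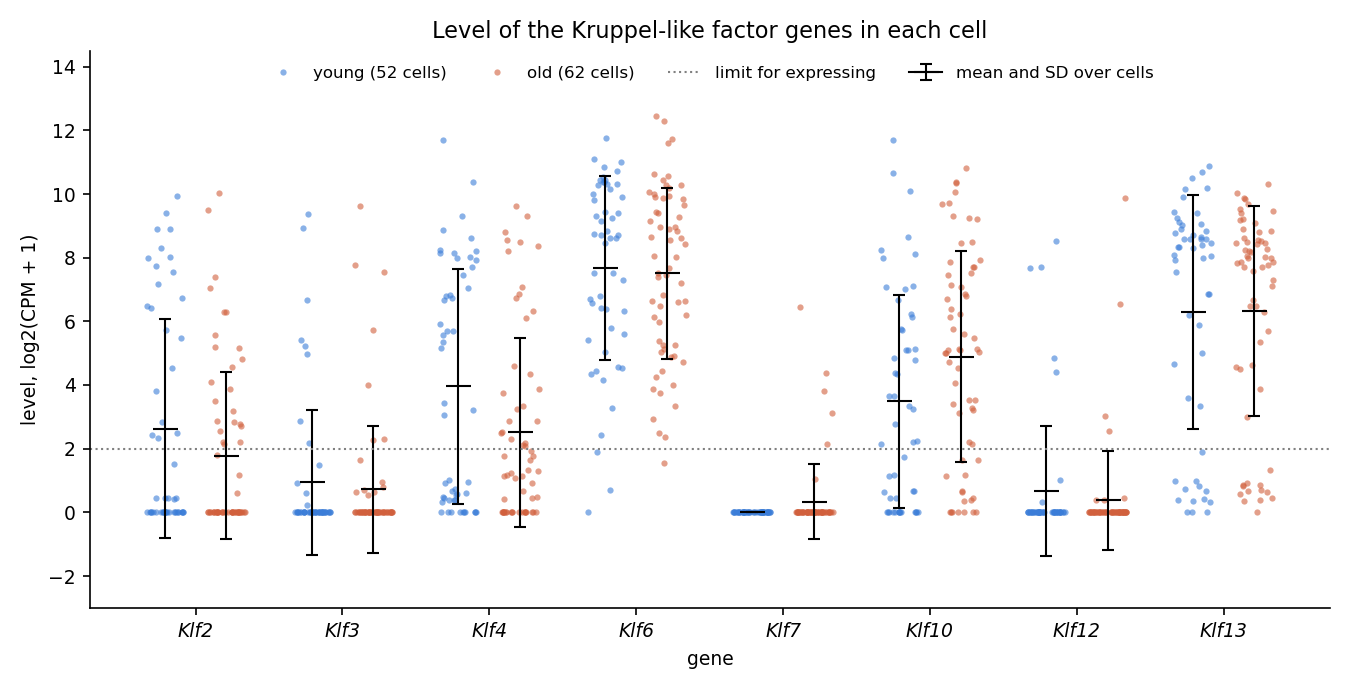
Level, log2(CPM + 1), of each Kruppel-like factor gene in each of 52 young (blue) and 62 old (orange) cells. Black marks are the mean and SD over cells and the dotted line is the limit of 2 for expressing. *Klf6* lay above the limit in all but 3 young cells and 1 old cell, *Klf7* was at 0 in every young cell, and the cells of both ages overlapped for every gene.

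*Klf6* and *Klf13* were expressed by most cells of either age, *Klf10*, *Klf4* and *Klf2* by a part of them, and *Klf3*, *Klf12* and *Klf7* by few. Between the ages, *Klf10* was higher in old cells by 1.41 and *Klf4* lower by 1.46 on the log2(CPM + 1) scale of means, and the other 6 genes differed by less than 1. Thus 1 of 8 members was higher by at least 1, where 3.91% of the 15014 genes with a read were, and 1 of 8 was lower by at least 1, where 4.49% of these genes were. The shares were 6.24% and 6.98% of those genes that at least 10% of cells expressed. The median difference, old minus young, was -0.19 over the members and -0.02 over all genes with a read.

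Levels of different genes were compared as CPM per kb of the longest RefSeq transcript. In young cells, mean CPM per kb was 152 ± 174 (SD over 52 cells) for *Klf6*, 59.2 ± 165 for *Klf4*, 56.9 ± 68.5 for *Klf13*, 52 ± 171 for *Klf10* and 46.02 ± 104 for *Klf2*. *Klf3* followed with 5.01 ± 21.5, *Klf12* with 2.70 ± 10.8, and *Klf7* was at 0. In old cells the order was *Klf6* with 154 ± 258 (SD over 62 cells), *Klf10* with 65.02 ± 122, *Klf13* with 43.7 ± 46.3, *Klf2* with 21.6 ± 86.6 and *Klf4* with 20.6 ± 51.8. The last were *Klf3* with 3.94 ± 20.4, *Klf12* with 2.87 ± 20.4 and *Klf7* with 0.277 ± 1.48. No neighbours in either order differed by more than the larger of their SDs between cells. *Klf4* stood next to *Klf6* by mean in young cells and behind *Klf2* in old cells, but its young median of 2.99 CPM per kb was far under the medians of *Klf6* (95.7) and *Klf13* (45.6).

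*Klf2* (chromosome 8, 72319062 to 72321654) encodes an activator that maintains quiescence and trafficking of lymphocytes. Its level in young cells ran from 0 through a median of 0.43 to 9.94, with a mean of 2.63 ± 3.45 (SD, n = 52 cells). In old cells it ran from 0, also the median, to 10.02, with a mean of 1.78 ± 2.62 (SD, n = 62 cells). At the limit of 2, shares of expressing cells lay close together, at 40.4% of young cells (95% exact interval 27.01 to 54.9) and 37.1% of old cells (25.2 to 50.3). They lay further apart with any read counted, at 51.9% and 41.9%, and at a CPM of at least 10, at 32.7% and 22.6%. Mean levels of the cells above the limit of 2 were 6.34 ± 2.44 in 21 young cells and 4.65 ± 2.27 in 23 old cells. Levels above 6, a bound chosen after the values were seen, were reached in 13 young cells (25%, 14.03 to 38.95) and 6 old cells (9.68%, 3.63 to 19.9). Summed reads were 12592 (95% Poisson interval 12373 to 12814) and 4759 (4625 to 4896), a rate 2.29-fold higher in young cells. A single cell held 34.2% of these reads in young and 40.2% in old cells. The difference of the mean levels, -0.85, was -0.39 when all sequenced cells were used. In the 9 young cells that were left out the mean was 1.56 ± 2.18, and in the 12 old ones 3.63 ± 3.52.

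*Klf4* (chromosome 4, 55527137 to 55532475), an activator and repressor known from monocyte differentiation, had the lowest difference among the members. In young cells the level ran from 0 through a median of 3.32 to 11.70, with a mean of 3.97 ± 3.69 (SD, n = 52 cells), and in old cells from 0 through 1.31 to 9.63, with a mean of 2.51 ± 2.95 (SD, n = 62 cells). Both the share of expressing cells and the level in them were lower in old cells. Young cells expressed it in 53.8% of cases (39.5 to 67.8) and old cells in 41.9% (29.5 to 55.2). Mean levels of expressing cells were 7.07 ± 2.02 in 28 young and 5.27 ± 2.65 in 26 old cells. Cells above level 6 numbered 19 in young (36.5%, 23.6 to 51.04) and 12 in old (19.4%, 10.4 to 31.4). Summed reads, 25865 (25551 to 26182) and 7033 (6870 to 7199), stood for a rate 3.18-fold higher in young cells. The highest cell held 27.4% of the young and 27.1% of the old reads. Without those cells the difference of the means was -1.42, and with all sequenced cells -1.06.

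*Klf6* (chromosome 13, 5861489 to 5870393), a broadly expressed activator induced by injury and growth signals, was the member with the most expressing cells and the most reads. The level ran from 0 through a median of 8.66 to 11.74 in young cells, with a mean of 7.68 ± 2.90 (SD, n = 52 cells), and from 1.54 through 7.85 to 12.45 in old cells, with a mean of 7.51 ± 2.69 (SD, n = 62 cells). It was expressed in 49 young cells (94.2%, 84.1 to 98.8) and 61 old cells (98.4%, 91.3 to 99.96). The difference of -0.17 was small beside the spread, and its sign was not stable, since the ratio of summed reads was 1.31-fold higher in old cells. Summed reads were 79282 (78731 to 79836) and 90030 (89443 to 90620), and 16.5% of the old reads came from 1 cell.

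*Klf7* (chromosome 1, 64029448 to 64122345), an activator best known from developing neurons, had no read in any of the 52 young cells, which allows a share of up to 5.77%. In old cells the level ran from 0, also the median, to 6.45. It was expressed in 5 old cells (8.06%, 2.67 to 17.8), and 319 of its 412 reads came from 1 cell. By summed reads, with 3 reads over all young cells taken as the limit, the rate in old cells was at least 159-fold higher, and 36.9-fold without the highest old cell. Amplified reads of a few cells are not independent counts, so these folds do not bound a difference between ages. By cells, the exact intervals of the shares, 0 to 6.85% and 2.67 to 17.8%, overlapped. The left-out cells of either age had no *Klf7* read.

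*Klf10* and *Klf13* belong to the KLF proteins that bind the corepressor Sin3A. *Klf10* (chromosome 15, 38291464 to 38300711), a target of TGF-beta signalling, had the highest difference among the members. Its level ran from 0 through a median of 3.01 to 11.68 in young cells, with a mean of 3.48 ± 3.35 (SD, n = 52 cells), and from 0 through 5.10 to 10.80 in old cells, with a mean of 4.89 ± 3.31 (SD, n = 62 cells). The highest cell of all was thus a young one, although the old cells were shifted upward. *Klf10* was expressed in 30 young cells (57.7%, 43.2 to 71.3) and 46 old cells (74.2%, 61.5 to 84.5), and no read at all was found in 14 young and 7 old cells. Expressing cells had a mean level of 5.80 ± 2.52 in young and 6.42 ± 2.35 in old, and 13 young cells (25%, 14.03 to 38.95) and 25 old cells (40.3%, 28.1 to 53.6) were above level 6.

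For *Klf10* the answer depended on how cells were weighted. Young cells summed to 22132 reads (21841 to 22426) and old cells to 25499 (25187 to 25814), which put the rate in old cells at 1.33-fold that in young cells, a log2 ratio of 0.41 where the difference of mean levels was 1.41. A single young cell held 9665 reads, 43.7% of all *Klf10* reads of young cells. Without the highest cell of each age the log2 ratio was 0.92 and the difference of mean levels 1.47. With all sequenced cells the latter was 1.65.

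*Klf13* (chromosome 7, 63886351 to 63938915), which activates *Ccl5* in T cells, had nearly equal means. The level ran from 0 through a median of 8.19 to 10.89 in young cells, with a mean of 6.30 ± 3.67 (SD, n = 52 cells), and from 0 through 7.85 to 10.32 in old cells, with a mean of 6.32 ± 3.29 (SD, n = 62 cells). The values fell into a high band and a low band with few cells between them, as the plot of levels by cell shows. It was expressed in 39 young cells (75%, 61.1 to 85.97) and 49 old cells (79.0%, 66.8 to 88.3). Nearly all others held traces, 10 young and 12 old cells having reads at or below the limit, with at most 8 reads in such a cell. Summed reads were 49439 (49004 to 49877) and 31882 (31533 to 32234). The gene overlaps *E030018B13Rik*, whose reads amounted to 0.799% of those of *Klf13* in young and 1.97% in old cells. How reads of the overlap were assigned is not given in the sources used here.

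*Klf3* and *Klf12* encode repressors that recruit CtBP. *Klf3* (chromosome 5, 64803521 to 64832901) was expressed in 8 young cells (15.4%, 6.88 to 28.1) and 7 old cells (11.3%, 4.66 to 21.9), with a median of 0 at both ages and highest levels of 9.36 and 9.64. *Klf12* (chromosome 14, 99866181 to 100285891) was expressed in 5 young cells (9.62%, 3.20 to 21.03) and 4 old cells (6.45%, 1.79 to 15.7), with highest levels of 8.51 and 9.88. Their mean differences were -0.21 and -0.29. Levels above 6 were reached by 3 young and 3 old cells for *Klf3* and by 3 young and 2 old cells for *Klf12*. Single cells carried much of the old sums, since 66.6% of old *Klf3* reads and 86.4% of old *Klf12* reads came from 1 cell.

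**Figure D2:**
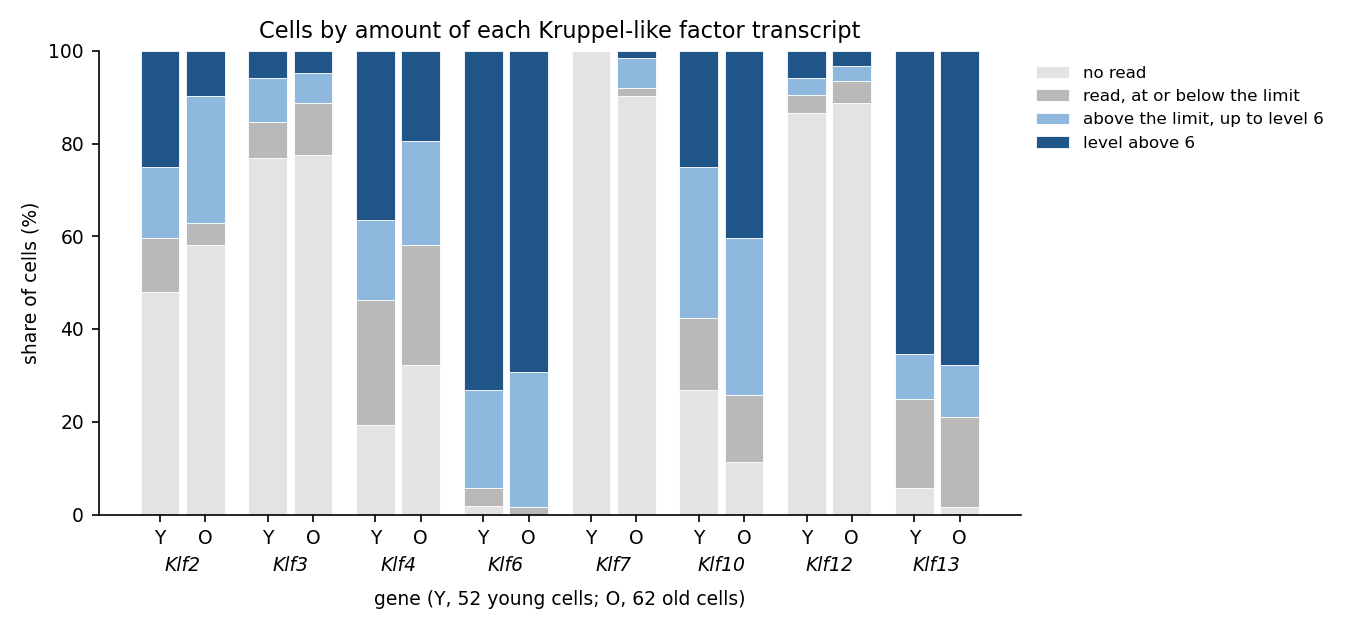
Share of young (Y) and old (O) cells, in percent, with no read of a gene, with reads at or below the limit of 2, with a level above 2 and up to 6, and with a level above 6. The top band was narrower in old cells for *Klf2* (9.68% against 25%) and *Klf4* (19.4% against 36.5%) and wider for *Klf10* (40.3% against 25%).

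A cell expressed 3.46 ± 1.31 of the 8 members in young cells (SD, n = 52) and 3.56 ± 1.03 in old cells (SD, n = 62), with a range of 1 to 6 at both ages. No cell was without any member. Exactly 3 members were expressed in 13 young and 25 old cells, 4 in 12 and 22, and 5 in 13 and 6. *Klf6* and *Klf13* were expressed together in 36 young and 48 old cells, where 94.2% and 98.4% of all cells expressed *Klf6* and 75% and 79.0% *Klf13*.

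*Klf2* and *Klf4*, which are close relatives, were expressed together in more young than old cells. They were expressed together in 13 young cells, which is 61.9% of the *Klf2* cells and 46.4% of the *Klf4* cells, and in 6 old cells, which is 26.1% and 23.1%. The share of cells with at least 1 of the pair was nevertheless 69.2% in young and 69.4% in old cells. Their levels had a Pearson r of 0.20 over young and -0.17 over old cells. Correlations between members were weak throughout: r was between -0.26 and 0.32 over 21 pairs in young cells, where *Klf7* gave none, and between -0.27 and 0.30 over 28 pairs in old cells. Of the 21 pairs with a value at both ages 10 had the same sign, and r exceeded 0.2 at both ages only for *Klf2* with *Klf6* (0.22 and 0.25). These cells share a mouse and an experiment within an age, and in sparse counts such values are a description only.

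Cell cycle genes were distributed unequally between the ages, so the members were also set out by them. One or more of the genes *Cdk1*, *Ccna2*, *Ccnb1* and *Cdc25c* was found expressed in 27 of 52 cells of the young mouse and in 13 of 62 of the old mouse. *Klf13* stood out in young cells, where 25 of the 27 cells with a cell cycle gene expressed it (92.6%, 75.7 to 99.1) against 14 of the 25 without (56%, 34.9 to 75.6), with mean levels of 7.62 ± 2.60 and 4.87 ± 4.15. In old cells the shares were 10 of 13 (76.9%, 46.2 to 94.96) and 39 of 49 (79.6%, 65.7 to 89.8), with means of 6.52 ± 3.32 and 6.26 ± 3.32. Among cells without a cell cycle gene, *Klf13* was accordingly higher in old cells by 1.39, where over all kept cells the difference was 0.02. Its level also had an r of 0.44 over young and 0.35 over old cells with the number of genes a cell expressed, and the part of this number in the contrast was not tested.

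Other members also varied along this division, *Klf4* and *Klf10* more than *Klf13* in old cells. All 5 young cells with *Klf12* had a cell cycle gene, and 0 of the 25 young cells without one expressed it (0%, exact interval 0 to 13.7). The 4 old *Klf12* cells all lacked one, as did 49 of all 62 old cells. Of the 13 old cells with a cell cycle gene 0 expressed *Klf12* (0%, 0 to 24.7), beside 8.16% of those without (2.27 to 19.6). In cells without a cell cycle gene the *Klf12* difference was 0.43 in place of -0.29. *Klf4* was expressed in 2 of 13 old cells with a cell cycle gene (15.4%, 1.92 to 45.4) and 24 of 49 without (48.98%, 34.4 to 63.7), and in young cells in 13 of 27 and 15 of 25. Mean levels of *Klf4* in old cells with and without a cell cycle gene were 1.45 ± 2.74 and 2.79 ± 2.97, and those of *Klf10* 6.27 ± 3.29 and 4.53 ± 3.26. *Klf10* was expressed in 18 of 27 young cells with and 12 of 25 without, and in 11 of 13 and 35 of 49 old cells. In cells without a cell cycle gene, *Klf4* was lower in old cells by 1.67 and *Klf10* higher by 1.55, near the values over all kept cells.

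**Figure D3:**
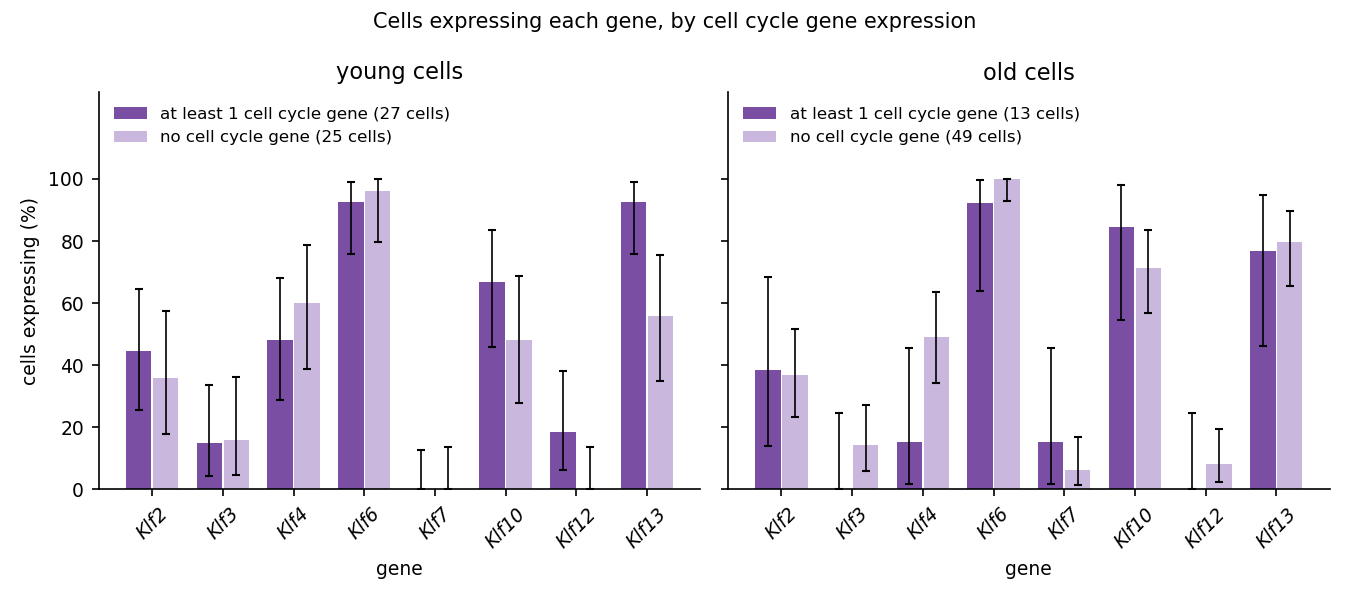
Percent of cells expressing each gene among cells with at least 1 of 4 cell cycle genes expressed (dark) and with none (light), for young cells on the left and old cells on the right. Error bars are 95% exact binomial intervals for counting error only. In young cells the *Klf13* bars differ most, 92.6% against 56%, and in old cells they are 76.9% and 79.6%.

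The genes whose levels followed a member most closely were sought for 5 members. These members, and the 6042 genes compared with each, were expressed in 20% or more of the cells of each age. Closeness was the mean of the Pearson r within young (n = 52) and within old cells (n = 62). Near to *Klf13* were *Gsk3b* (mean r 0.45), a kinase of Wnt and insulin signalling, and *Suclg1* (0.37), a citric acid cycle enzyme subunit. *Klf10* was followed by *Tra2a* (0.39), a splicing regulator, *Tmed10* (0.39) and *Zfp345* (0.38). Nearest to *Klf2* were *Stx17* (0.38), a syntaxin of autophagosomes, *Meis2* (0.36), a homeobox gene, and *Igtp* (0.34), an interferon-induced GTPase. *Klf4* had *Stk38l* (0.33), *Map3k3* (0.32) and *Ccnd1* (0.32), and *Klf6* had *Clock* (0.32), *Sik1* (0.32) and *Rtp4* (0.31). Map3k3 is the kinase that activates the MEK5 pathway, and *Ccnd1* encodes cyclin D1. All these values are weak, and they top a range whose 95th percentile was between 0.14 and 0.22.

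Most of the further relatives were higher in old cells, by less than 1 except for *Sp1* and *Sp3*. Of the other KLF genes 6 had reads, none differed by 1 or more, and the median difference was 0.31. *Klf9*, a stress and hormone-responsive factor, had means of 2.04 ± 2.93 and 2.71 ± 3.01 in young and old cells. *Klf11*, a TGF-beta-induced relative of *Klf10*, had 0.39 ± 1.08 and 0.94 ± 2.06, and *Klf16* 1.02 ± 2.38 and 1.46 ± 2.63. Of 5 SP genes, 2 were higher by at least 1, where 3.91% of all genes with a read were, and 6.24% of those that at least 10% of cells expressed. *Sp1*, the general GC box activator, had means of 4.38 ± 3.68 and 6.16 ± 3.69, and *Sp3* of 3.27 ± 3.25 and 4.32 ± 3.26. *Sp2* and *Sp4* differed by 0.21 and 0.40.

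Among 12 corepressors and coactivators of KLF proteins, 1 was lower by at least 1 and none higher, and the median difference was -0.33. All 12 were expressed in at least 10% of cells, and 6.98% of all such genes were lower by 1, so the count is near the background. The gene was *Sin3a*, the scaffold bound by Klf10 and Klf13, with means of 4.24 ± 3.68 in young and 2.80 ± 3.49 in old cells. *Fhl3*, a partner of Klf3, differed by -0.89, *Hdac3* by -0.75, the acetyltransferase gene *Ep300* by -0.68 and *Wdr5* by 0.70. Of 15 upstream regulators, 1 was higher by at least 1, *Mef2c*, a MADS box factor that acts on the *Klf2* promoter, with 5.59 ± 3.66 in young and 7.37 ± 2.76 in old cells. A single gene of 15 is also near the background of 3.91% of all genes and 6.24% of those that 10% of cells or more expressed. *Tgfbr2*, a TGF-beta receptor gene, differed by 0.93, *Mef2a* by 0.72, *Smad2* by 0.55 and *Smad3* by 0.48. None of 10 ubiquitin ligases that act on KLF proteins differed by 1, and the largest differences were those of *Itch* (-0.51), *Smurf2* (-0.44) and *Wwp1* (0.37), followed by *Fbxo32* (0.29) and *Siah1a* (0.15) among those that 10% of cells or more expressed.

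Of 12 reported KLF targets with a read, 3 were higher by at least 1, beside 3.91% of all genes with a read. *S1pr1*, the egress receptor that Klf2 activates in T cells, was expressed in 12 young and 20 old cells and differed by 1.11. *Cdkn1a*, which encodes the cell cycle inhibitor p21, was expressed in 2 young and 16 old cells and differed by 1.21, and *Ccnd1*, which Klf4 is known to repress, in 12 and 24 cells with a difference of 1.18. *Smad7* differed by 0.87.

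Immediate-early genes, the class of quickly induced genes to which several KLF genes are often counted, were mostly higher in old cells: 10 of 20 by at least 1 and 1 lower, beside 3.91% and 4.49% of all genes with a read, and with a median difference of 0.90. *Btg2* differed by 5.12, *Egr1* by 4.46, *Nr4a1* by 3.29, *Ier2* by 3.13 and *Ier3* by 2.93. Within an age, the r of *Egr1* with the members lay between -0.05 and 0.22 over young cells and between -0.09 and 0.18 over old cells. *Fos* had an r of 0.39 with *Klf6*, 0.32 with *Klf2* and 0.31 with *Klf4* in young cells and of 0.05, 0.08 and 0.18 in old cells. The 4 cell cycle genes were all lower in old cells by at least 1, *Cdk1* by 1.77, *Ccna2* by 1.61, *Ccnb1* by 1.49 and *Cdc25c* by 1.17. Platelet markers together were above the limit in 18 of 52 young and 31 of 62 old cells, endothelial markers in 28 and 25, and granulocyte and macrophage markers, almost wholly through *Lyz2*, in 43 and 45. The part of these differences in those of the members was not tested.

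**Figure D4:**
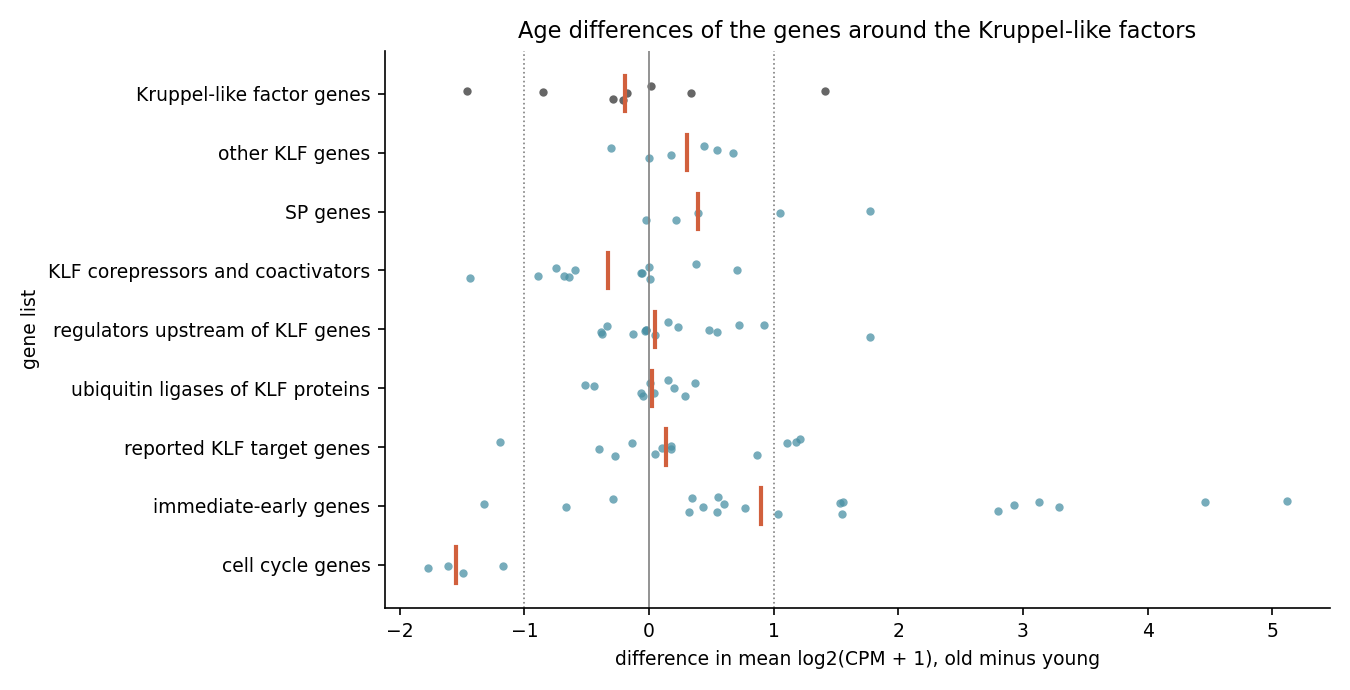
Old minus young difference of the mean log2(CPM + 1) for every gene with a read in each list (points), with the list median (orange bar) and dotted lines at -1 and 1. The Kruppel-like factor genes spread from -1.46 to 1.41 around a median of -0.19, and the immediate-early genes reach 5.12.

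Across the processing alternatives the *Klf4* difference stayed between -1.78 and -1.06 and that of *Klf10* between 0.41 and 1.94. *Klf2* ran from -1.19 to -0.39, and *Klf7* from 0.24 to 0.64. *Klf3*, *Klf6*, *Klf12* and *Klf13* took both signs.

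**Figure D5:**
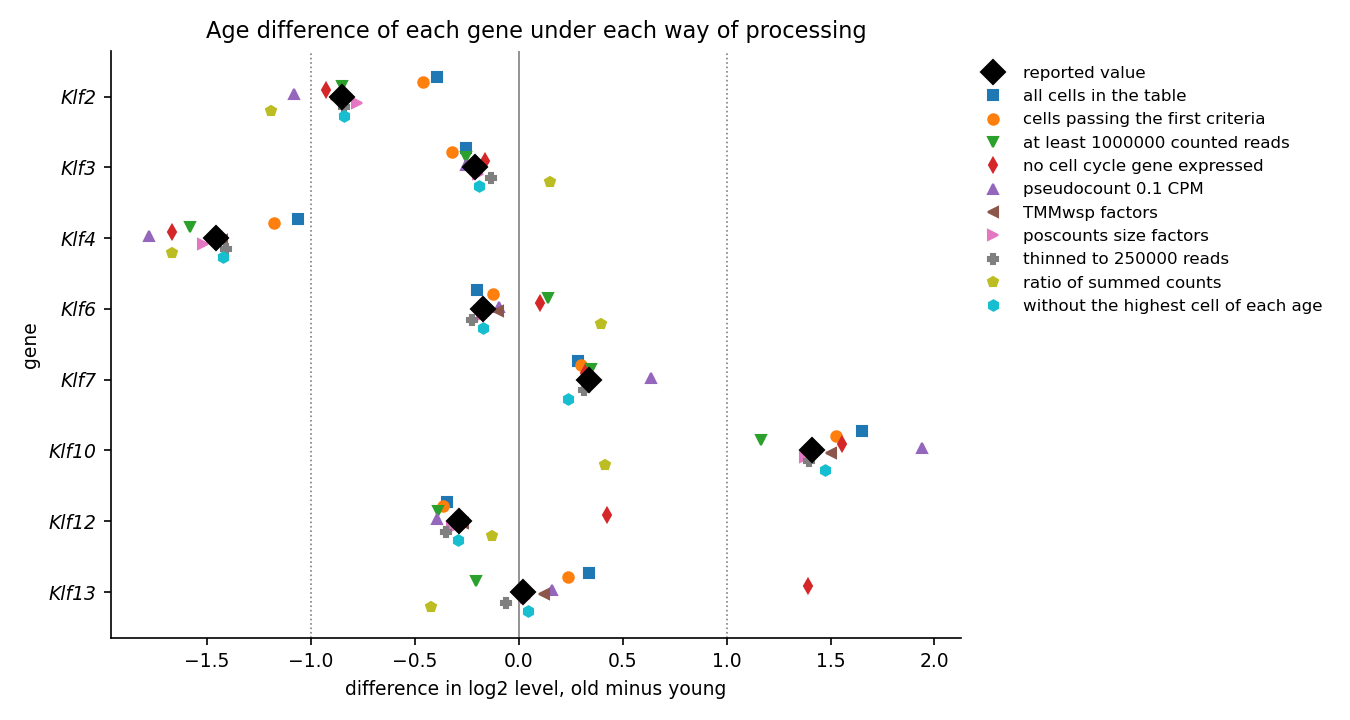
Difference in log2 level, old minus young, of each gene as reported (black diamond) and under each alternative (coloured marks), with dotted lines at -1 and 1. All *Klf4* values lie at or below -1.06, *Klf10* falls to 0.41 only for the ratio of summed counts, and *Klf13* reaches 1.39 only in cells without a cell cycle gene.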

How the data were processed

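Single HSCs were captured on the Fluidigm C1 system, amplified with the SMARTer kit from polyadenylated RNA and made into Nextera XT libraries. The authors mapped single-end reads to mm10 with TopHat2 2.0.10 (submitters' processing notes), allowing a single alignment per read, quantified RefSeq genes with rpkmforgenes and deposited raw read counts per gene and cell, with no normalization. The libraries hold no molecular identifiers, and strand use in counting is not given in the sources used here. Capture sites were imaged for single cells, and no doublet caller was run.

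CPM was taken over each cell's total of counts, and log2(CPM + 1) was averaged over the 114 of 135 cells that the authors kept. A difference is old minus young, and 1 or more on this scale was the limit for counting a gene. A gene was expressed in a cell above level 2. Intervals are 95% exact binomial or Poisson intervals and, like the floor of 3 counts, cover counting error only. Amplified reads are not independent counts, so the Poisson intervals of summed reads are too narrow even for that. Counting error says nothing of the spread between mice. The members and all gene lists were chosen with earlier results of these data known. Named were all members, at most 5 genes of each list with the largest difference among those expressed in at least 10% of cells, and the 3 genes most like each member. Transcript lengths and promoters came from RefSeq and GENCODE M21 on GRCm38. Alternatives were other cells, depths, pseudocounts and scalings (edgeR 4.0.16 TMMwsp, DESeq2 1.42.0 poscounts, used for factors only). A difference was called moved when the ratio changed by 1.5 times, and a share when it left its exact interval. Results that rest on some of the named genes are not reported here.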

Additional observations from a re-analysis of the deposited data

How the results depend on the processing

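Of 79 alternative values of the members' differences, 76 moved by less than 1.5 times and 71 kept their direction. The count of members higher by at least 1 was 1 as reported, 2 in cells without a cell cycle gene (*Klf10* and *Klf13*) and 0 for the ratio of summed counts. The count of members lower by at least 1 was 1 as reported and 2 with a pseudocount of 0.1 CPM or for the ratio of summed counts, in both cases *Klf2* beside *Klf4*. The values that moved were *Klf10* for the ratio of summed counts (0.41), where 1 young cell weighs most, and *Klf13* (1.39) and *Klf12* (0.43) in cells without a cell cycle gene, 25 young and 49 old cells. The median difference of the members was 0.21 in those cells and negative under every other alternative. Thinning all cells to 250000 reads left every share of expressing cells within its interval, and counting any read as expression moved 8 of 16 shares out of theirs. A CPM of at least 10 moved 2, the shares of old cells with *Klf2* (22.6%) and with *Klf4* (25.8%). Of the 15 genes most like a member, 4 were found again with Spearman rank correlation, 7 with all cells and 8 after thinning. No replicate could be left out with a single mouse per age, and no paired analysis was possible because each age is a single mouse. The sums of *Klf3*, *Klf7* and *Klf12* rest on few cells.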
